A study of Mus musculus with 6 samples.

Results

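Adipogenesis turns a fibroblast-like precursor into a fat-storing cell, and 10 genes of this program were followed in the RNA-seq of mouse adult fibroblasts (MAFs). They are the transcription factors *Pparg*, *Cebpa*, *Cebpb* and *Cebpd*, the fatty acid genes *Lpl*, *Cd36* and *Fabp4*, the lipid droplet coat genes *Plin1* and *Plin2*, and the adipokine gene *Adipoq*. They were found by their names in the deposited count table, which lists 43346 genes, and each name occurred there once. The rule used their names alone, but the 10 genes were chosen with earlier results of these data known.

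The MAFs were primary cells, not an established line, and had been grown out of ear tissue taken from C57BL6/J mice that were adult and female. Control cells (3 samples) were sham irradiated. Senescent cells (3 samples) received 20 Gy of X-rays, a dose that stops division and brings on senescence, and were kept for 21 days. How long control cells were kept is not given in the sources used here, so time in culture may also differ between the groups. Both groups grew at 3% oxygen in DMEM with serum, were given 100 nM dexamethasone for 2 hours, and were collected 12 hours later. Dexamethasone is a glucocorticoid that sets the clocks of cultured cells to one phase, and it is also a component of the mixtures used to turn precursor cells into adipocytes. Because control and senescent cells were both treated, no value here describes cells without it. Whether the 3 samples of a group came from separate cultures or animals is not given in the sources used here, so the p-values measure the spread between these samples, which may be technical.

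As background, C/EBPβ and C/EBPδ act early in adipogenesis and bring up PPARγ and C/EBPα, which then keep each other active and switch on the genes of the fat cell. PPARγ binds DNA together with a retinoid X receptor (RXR) and is activated by fatty acid ligands. Among the genes it controls are those for lipoprotein lipase, the fatty acid transporter CD36, the fatty acid binding protein FABP4, perilipin 1 and adiponectin. Fibroblasts also store some neutral lipid, in droplets that are coated mostly by perilipins 2 and 3.

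Total counts lay between 50288454 and 82229553 per library, and a count of 0 allows up to 3 counts, or 0.0355 to 0.0613 CPM (counts divided by library size and brought to one common scale) depending on the library. These limits cover counting error alone. The medians of squared differences between replicate libraries were divided by the value that counting noise gives. Control replicates 2 and 3 gave 1.78. Control replicate 1 lay further off, at 5.02 from control replicate 2 and 4.53 from control replicate 3. Senescent replicates 1 and 2 gave 2.24, whereas senescent replicate 3 stood apart from them, at 18.8 and 24.5, and results are therefore also given without it where they turn on it. All 8 fibroblast markers were detected, with a summed level of 13689 to 15432 CPM in control and 4281 to 5152 CPM in senescent libraries, of which *Col1a1*, *Col1a2* and *Col3a1* made up most. These 3 collagen genes, *Pdgfra* and *Fbln1* fell, whereas *Thy1*, *Dcn* and *Lum* rose (5 lower and 3 higher of 8), with *Thy1* going from 107 to 298 CPM.

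Levels are CPM scaled by edgeR's TMM method. Differences are log2 fold changes of senescent over control cells with their standard errors (SE), from edgeR's quasi-likelihood test across 17589 genes with Benjamini-Hochberg adjustment, and every adjusted p below comes from this test unless another is named. A gene is said to rise or fall where its adjusted p was under 0.05. The median log2 fold change of all genes tested was 0.01.

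Of the 10 genes, 9 had enough counts for the test and *Plin1* did not. *Pparg*, *Cebpa*, *Cebpd* and *Fabp4* fell, *Lpl*, *Cd36*, *Plin2* and *Adipoq* rose, and *Cebpb* did not pass the threshold. These 8 of 9 stand beside 70.3% of all genes tested (36.2% higher and 34.1% lower), so the number of genes that changed is close to what the table as a whole gives. *Cd36* and *Adipoq* passed the filter on low counts through the senescent libraries alone and therefore had to differ, and their count adds nothing to this comparison. The other 7 genes tested were above the filter's limit of 0.173 CPM in control libraries as well, and 6 of these 7 were called, 2 higher and 4 lower. With the threshold of the study's methods, an absolute log2 fold change over 1 with an unadjusted p under 0.05, *Pparg*, *Cd36* and *Adipoq* passed (3 of 9, beside 30.1% of all genes tested). *Cd36* and *Adipoq* were higher (17.8% of all genes), and *Pparg* was lower (12.3%). Without both genes that the filter let in through the senescent libraries, 1 of 7 passed. The study's results section names another p cutoff for its list of changed genes, which was not applied here. The unadjusted p of *Pparg*, *Cd36* and *Adipoq* were 1.03e-07, 2.58e-06 and 0.000215 (edgeR). Below, the study's threshold means that of its methods. Control and senescent values did not overlap in 8 of the 9 genes tested, beside 75.3% of all genes tested, and in 6 of the 7 that were also above the limit in control libraries.

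**Figure D1:**
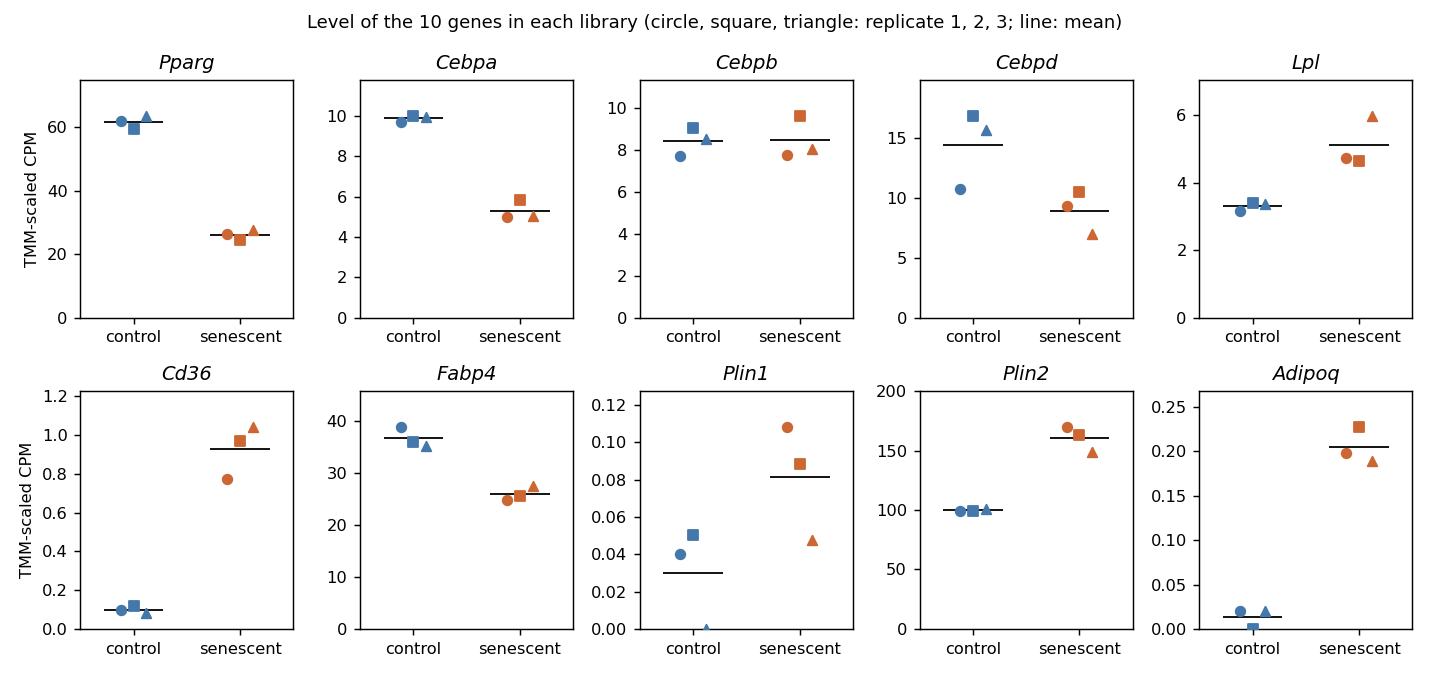
Level of each of the 10 genes in TMM-scaled CPM (vertical axis, from 0, a separate scale for each gene) in the 3 control and 3 senescent libraries. Circles, squares and triangles are replicates 1, 2 and 3 and the line is the mean; the groups do not overlap for any gene other than *Cebpb* and *Plin1*.

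*Pparg* encodes the nuclear receptor that is both needed for and able to drive adipogenesis (chromosome 6 from 115361221 to 115490401 in mm10). It was at 62.1, 59.5 and 63.6 CPM in control replicates 1, 2 and 3 and at 26.5, 24.6 and 27.5 CPM in senescent replicates 1, 2 and 3. Every senescent library was below every control library, and the libraries of a group lay close together. The mean was 61.7 ± 2.05 CPM in control against 26.2 ± 1.47 CPM in senescent cells (n = 3 per group, ± SD), 0.424 of the control level, with a log2 fold change of -1.24 (SE 0.07, 95% interval -1.39 to -1.08, adjusted p = 1.59e-06, edgeR). Under 12 alternative settings the log2 fold change lay between -1.27 and -1.16. In the order of absolute log2 fold changes *Pparg* took place 4210 of 17589, and 23.9% of genes tested had a larger one. As in any bulk sample, fewer cells that express a gene and less RNA per cell cannot be told apart.

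*Cebpa* (chromosome 7 from 35119293 to 35121926) encodes C/EBPα, the factor that sustains *Pparg* in the fat cell and gives it insulin sensitivity. Its levels were 9.72, 10.0 and 9.93 CPM in the control libraries and 4.98, 5.83 and 5.02 CPM in the senescent libraries, in the order of replicates 1, 2 and 3. The control values were almost equal and each was above all senescent values. *Cebpa* fell by 0.91 on the log2 scale (SE 0.09, adjusted p = 6.02e-05, edgeR) to 0.534 of the control level. An annotated gene on the other strand, *Gm45091*, shares 51 exon bases with *Cebpa* in GENCODE M21 and was not counted in the table.

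*Cebpb* (chromosome 2 from 167688915 to 167690418) and *Cebpd* (chromosome 16 from 15887286 to 15888466) encode the early C/EBP factors, and the dexamethasone of adipogenic mixtures is known for inducing *Cebpd*. *Cebpb* was at 7.74, 9.08 and 8.56 CPM in control replicates 1, 2 and 3 and at 7.77, 9.64 and 8.08 CPM in senescent replicates 1, 2 and 3. The groups overlapped, and the log2 fold change was 0.01 (SE 0.11, 95% interval -0.25 to 0.27, adjusted p = 0.96, edgeR), an interval that holds small changes in both directions. *Cebpb* shares 312 exon bases with *Tmem189* on the other strand, which had 2109 to 3346 counts per library, against 386 to 764 for *Cebpb*. The strand setting of the counting is not given in the sources used here, so reads of the shared stretch cannot be assigned with certainty.

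*Cebpd* was at 10.7, 16.8 and 15.6 CPM in control replicates 1, 2 and 3 and at 9.32, 10.5 and 6.94 CPM in senescent replicates 1, 2 and 3. Control replicate 1 lay next to the highest senescent library, and the spread within the groups was the widest of the 4 factors, with means of 14.4 ± 3.26 and 8.91 ± 1.80 CPM (n = 3 per group, ± SD). The log2 fold change was -0.69 (SE 0.20, adjusted p = 0.0156, edgeR), and without control replicate 1 it was -0.87 (adjusted p = 0.00456, edgeR). The call was lost without control replicate 2 (-0.57, adjusted p = 0.0613), control replicate 3 (-0.64, adjusted p = 0.0539) or senescent replicate 3 (-0.53, adjusted p = 0.0622), and over all 12 alternatives the adjusted p lay between 0.00131 and 0.0622. The gene model behind the counts is listed as a pseudogene and has 1180 exon bases, against a protein-coding model of 3746 exon bases in GENCODE M21, so reads from the rest of the transcript were not counted on it. In GENCODE M21 the longer model shares 562 exon bases with *Spidr* on the other strand, which had 1990 to 3292 counts per library, against 517 to 1007 for *Cebpd*. The deposited models of both genes share 0 bases, since that of *Cebpd* ends before *Spidr*.

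**Figure D2:**
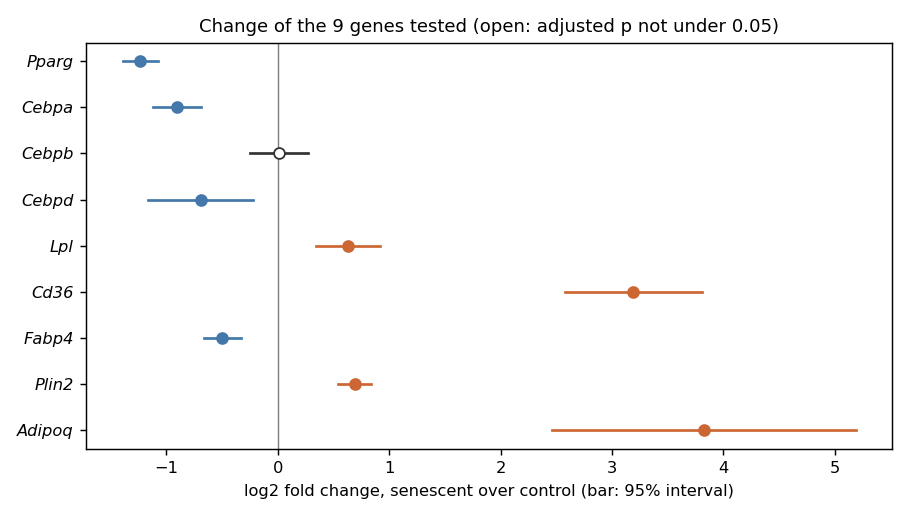
Log2 fold change of senescent over control cells (horizontal axis) for the 9 genes tested, with 95% intervals from edgeR's quasi-likelihood fit; filled orange points rose, filled blue points fell, and the open point is *Cebpb*. The intervals of *Pparg* (-1.39 to -1.08) and *Plin2* (0.54 to 0.84) are narrow, and that of *Adipoq* (2.46 to 5.19), with few counts, is the widest.

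The genes that work with these factors were read from lists of related genes. *Rxra*, the main RXR partner of PPARγ in many tissues, went from 143, 159 and 159.6 CPM to 80.6, 86.0 and 64.2 CPM in replicates 1, 2 and 3 and fell by 1.00 on the log2 scale (adjusted p = 9.69e-05, edgeR). *Rxrb* and the coactivator gene *Ncoa2* also fell, with log2 fold changes of -0.80 and -0.32. Of the 12 genes of the PPAR family, RXR partners and coregulators, 2 rose, 4 fell and 6 did not pass the threshold, with a median log2 fold change of -0.26. *Rxrg*, 1 of the 2 that rose, passed the filter through the senescent libraries alone and could only be called higher.

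Of the other PPAR receptors, *Ppara*, a regulator of fatty acid oxidation, rose from 0.411 to 0.987 CPM (log2 fold change 1.26, adjusted p = 0.000829, edgeR). *Ppard* was at 36, 41.3 and 40.0 CPM in control and 32.1, 34.3 and 19.3 CPM in senescent replicates 1, 2 and 3, a log2 fold change of -0.45 that did not pass (adjusted p = 0.0697, edgeR). It passed without senescent replicate 3 (-0.23, adjusted p = 0.00318), and over 12 alternatives its adjusted p lay between 0.00318 and 0.185. Per exon length, in TMM-scaled CPM per kilobase (RPKM) from the gene lengths in the count table, the summed level of the PPAR receptors was 39.7 ± 0.966 in control and 19.6 ± 1.20 in senescent cells (n = 3 per group, ± SD). *Pparg* made up 76.8 to 79.9% of this sum in control libraries and 61.7 to 75.8% in senescent libraries, so it was the most abundant PPAR transcript in both groups.

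Of the 4 tested genes for other C/EBP factors and their regulators, *Trib2*, *Ddit3* and *Trib1* rose and *Cebpg* did not pass, with a median log2 fold change of 1.35. *Ddit3* encodes CHOP, a stress-induced partner that can block DNA binding of other C/EBP factors, and it rose from 27.0 to 69.2 CPM (log2 fold change 1.36, adjusted p = 2.41e-05, edgeR). *Trib1* and *Trib2* encode pseudokinases known for targeting C/EBPα protein for degradation. *Trib2* was at 20.0, 21.1 and 20.7 CPM in control and 119, 125 and 124 CPM in senescent replicates 1, 2 and 3, a log2 fold change of 2.58 (SE 0.06, adjusted p = 2.29e-08, edgeR), and *Trib1* rose by 1.33. *Cebpg* had the highest mean level per length of the C/EBP family in both groups, at 14.3 and 13.6 RPKM, although its control values (14.0 to 14.6 RPKM) overlapped those of *Cebpd* (9.05 to 14.3 RPKM). Its log2 fold change of -0.08 passed the threshold without senescent replicate 3 alone (-0.15, adjusted p = 0.00239, edgeR). Within the summed RPKM of the C/EBP family, *Cebpa* went from 10.0 to 11.3% in control libraries to 6.74 to 7.33% in senescent libraries. *Cebpb* went from 15.4 to 15.8% to 18.5 to 21.2%, beside a sum of the family that was lower in senescent cells (28.8 ± 1.19 against 35.9 ± 2.98 RPKM; n = 3 per group, ± SD) and a level of *Cebpb* that overlapped between the groups.

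Upstream factors moved both ways. Of 12 genes that promote adipogenesis, 4 rose and 6 fell, with a median of -0.47, or 3 and 6 of 11 (median -0.65) without *Ebf2*, which passed the filter through the senescent libraries alone. The early activators *Klf4* and *Egr2* rose by 1.54 and 1.89 on the log2 scale, whereas *Srebf1*, which drives lipid synthesis genes, fell from 161 to 45.5 CPM (log2 fold change -1.83, adjusted p = 8.11e-05, edgeR). Of 9 genes that restrain adipogenesis, 4 rose and 4 fell, with a median of 0.21. Without *Gata3*, which entered in the same way as *Ebf2*, it was 3 and 4 of 8, and the median changed its sign to -0.19. *Dlk1*, which encodes the preadipocyte factor Pref-1, and *Klf2*, a repressor of the *Pparg* promoter, had log2 fold changes of -1.22 and -2.28, and *Nr2f2* rose by 1.29.

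The 3 genes for the supply of fatty acids did not move together. *Lpl* (chromosome 8 from 68880491 to 68907448) encodes lipoprotein lipase, which frees fatty acids from circulating triglycerides. It was at 3.17, 3.38 and 3.37 CPM in control and 4.74, 4.65 and 5.97 CPM in senescent replicates 1, 2 and 3. All senescent values were higher, with the highest in senescent replicate 3, and *Lpl* rose by 0.63 on the log2 scale (SE 0.12, adjusted p = 0.00225, edgeR). Without that library the log2 fold change was 0.51 (adjusted p = 0.000375, edgeR).

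*Cd36* (chromosome 5 from 17781690 to 17888959) encodes a membrane protein that takes up long-chain fatty acids. Control replicates 1, 2 and 3 held 5, 7 and 4 counts of it, against 43, 77 and 88 in senescent replicates 1, 2 and 3. Every senescent library held more than every control library, although the level in senescent cells stayed low, at 0.930 ± 0.138 CPM against 0.0997 ± 0.0177 CPM (n = 3 per group, ± SD). The ratio of the summed counts, scaled for depth, was 9.41, with a 95% counting interval of 5.66 to 16.8, and the log2 fold change was 3.19 (SE 0.26, adjusted p = 1.78e-05, edgeR). A larger absolute log2 fold change was seen in 6.82% of genes tested. Because *Cd36* passed the filter through the senescent libraries alone and had to differ, its adjusted p and this place are descriptive only.

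*Fabp4* (chromosome 3 from 10204088 to 10208576), also known as aP2, encodes a carrier of fatty acids in the cytosol and is a widely used marker of adipocyte differentiation. It was at 38.7, 35.8 and 35.1 CPM in control and 24.8, 25.5 and 27.4 CPM in senescent replicates 1, 2 and 3. The groups did not overlap, and *Fabp4* fell by 0.50 on the log2 scale (SE 0.07, adjusted p = 0.000414, edgeR), with a 95% interval of -0.66 to -0.33 that did not reach those of *Pparg* (-1.39 to -1.08) and *Cebpa* (-1.12 to -0.69).

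Within its family, *Fabp5*, the epidermal form, had the highest RPKM in control cells, at 14.4 ± 0.949. In senescent cells it was at 4.40 ± 0.206 RPKM (n = 3 per group, ± SD, log2 fold change -1.71, adjusted p = 5.84e-07, edgeR). *Fabp3* and *Fabp7*, the heart and brain forms, rose by 1.12 and 1.65. *Fabp5* made up 54.2 to 56.9% of the summed RPKM in control and 22.9 to 25.6% in senescent libraries, while the share of *Fabp4* overlapped between the groups, at 30.2 to 32.6% and 30.5 to 32.5%. At 5.76 RPKM, *Fabp4* had the highest mean of these forms in senescent cells, with *Fabp3* at 5.19 RPKM next to it. The exon length used for *Fabp4*, 4489 bases, equals the whole span of its gene, so any intron is in the divisor. Its RPKM and share may therefore be too low, and its place against *Fabp5* in control cells is uncertain. Over all 10 genes of fatty acid binding, uptake and activation, 4 rose, 4 fell and 2 did not pass, with a median of -0.04. The acyl-CoA synthetase gene *Slc27a3* gave the largest decrease among those named, with a log2 fold change of -2.30.

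Around *Lpl*, the gene for its endothelial anchor, *Gpihbp1*, had 0 counts in all 6 libraries. *Lmf1*, needed to fold the lipase, fell by 0.93 (adjusted p = 0.000767, edgeR), and *Angptl4*, which encodes an inhibitor of the lipase and is a known target of PPARs and of glucocorticoids, was at 60.0 and 65.3 CPM (log2 fold change 0.12, adjusted p = 0.245, edgeR). *Angptl4* passed without senescent replicate 3 (0.22, adjusted p = 7.57e-05). The related endothelial lipase gene *Lipg* rose by 0.71. It held 88.8 to 91.6% of the summed RPKM of the lipase family over the 6 libraries and *Lpl* 7.99 to 10.7%, and neither share separated the groups. *Apoe* rose by 2.48, from 10.1 to 56.6 CPM. Of the 11 genes of this list 6 were tested, of which 2 rose, 2 fell and 2 did not pass, with a median of -0.02, and 1 fell when libraries were scaled by size alone.

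Of both lipid droplet coat genes in the set, only *Plin2* had enough counts for the test. *Plin2* (chromosome 4 from 86648386 to 86670060) encodes perilipin 2, the coat protein found on droplets of most cell types and the usual marker of their lipid content. It was at 99.0, 99.2 and 101 CPM in control and 169.6, 163 and 149 CPM in senescent replicates 1, 2 and 3. Every senescent library was higher, and *Plin2* rose to 1.61 times the control level, a log2 fold change of 0.69 (SE 0.06, 95% interval 0.54 to 0.84, adjusted p = 3.72e-05, edgeR). Between 0.65 and 0.76 was found under the 12 alternatives.

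The other expressed perilipins went the other way. *Plin3* fell from 95.6 to 50.2 CPM (log2 fold change -0.93, adjusted p = 9.31e-05, edgeR). *Plin4*, whose product coats nascent droplets, fell from 108, 115 and 115 CPM to 23.7, 25.1 and 20.2 CPM in replicates 1, 2 and 3 (log2 fold change -2.29, adjusted p = 3.06e-07, edgeR). Per length, the summed perilipin level was 92.2 ± 3.78 RPKM in control and 73.0 ± 6.30 RPKM in senescent cells (n = 3 per group, ± SD). The share of *Plin2* in it was 30.0 to 32.1% in control and 60.8 to 64.4% in senescent libraries, that of *Plin3* 46.5 to 48.8% and 30.3 to 33.5%, and that of *Plin4* 21 to 21.3% and 5.31 to 5.68%. *Plin3* was thus the most abundant perilipin in control cells and *Plin2* in senescent cells. With exon lengths from GENCODE M21, chosen after seeing the data, *Plin2* already led in control cells, at 38 to 40.1%, and reached 71.0 to 74.0% in senescent cells. The counts were still those of the deposited models. The longer length of *Plin3* in GENCODE M21 (25.3 in place of 44.3 RPKM in control cells) may therefore give it too low a share.

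*Plin1* (chromosome 7 from 79721164 to 79732776), the perilipin of the mature adipocyte, had 2, 3 and 0 counts in control and 6, 7 and 4 counts in senescent replicates 1, 2 and 3. Scaled for depth, the lowest senescent library lay below the highest control library. The gene was below the filter, and the ratio of summed counts was 2.46 with a 95% counting interval of 0.872 to 8.53. *Plin5* and *Cidec*, which mark droplets of oxidative tissue and of the adipocyte with a single large droplet, were at most at 0.0802 CPM in any library.

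**Figure D3:**
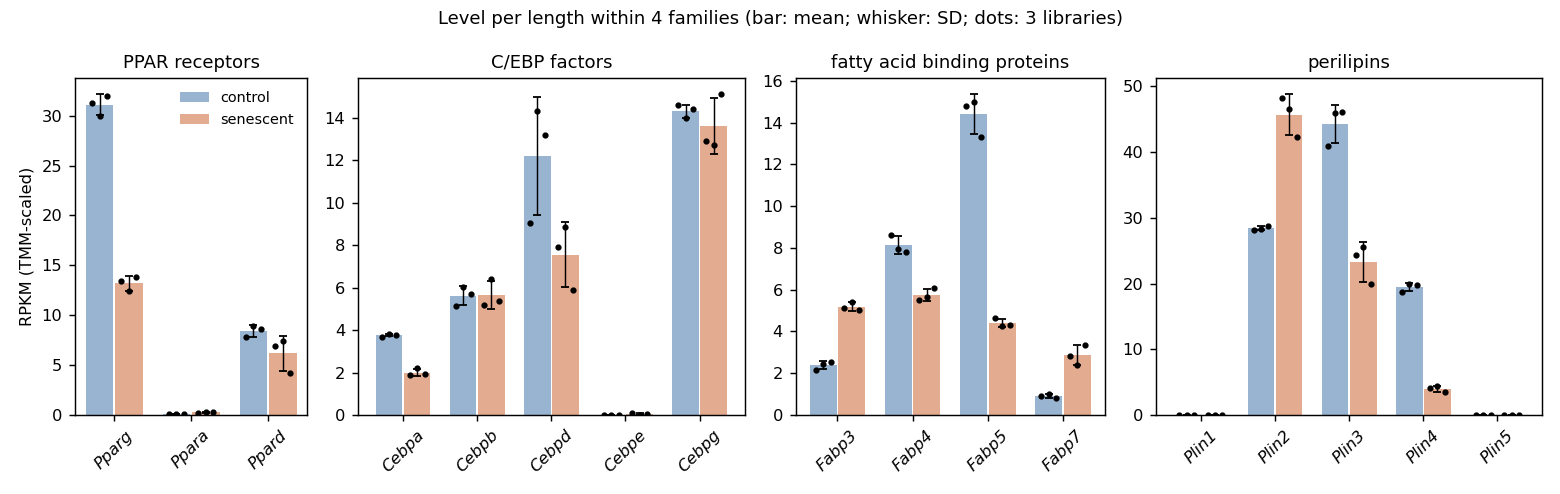
Level per exon length (RPKM, TMM-scaled, from 0, vertical axis) of the members of 4 families; bars are means, whiskers SDs and dots the 3 libraries of control (blue) and senescent (orange) cells. Among perilipins *Plin2* rose from 28.4 to 45.7 RPKM while *Plin3* and *Plin4* fell, and among fatty acid binding proteins *Fabp5* fell from 14.4 to 4.40 RPKM.

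*Adipoq* (chromosome 16 from 23146536 to 23158028) encodes adiponectin, a hormone made almost exclusively by fat cells. It had 1, 0 and 1 counts in control and 11, 18 and 16 counts in senescent replicates 1, 2 and 3. All senescent libraries held more counts, but in libraries of this depth they amount to 0.205 ± 0.0196 CPM (SD, n = 3). The ratio of summed counts was 16.3 with a 95% counting interval of 4.25 to 139, and edgeR gave an adjusted p of 0.000591. Like *Cd36*, *Adipoq* passed the filter through the senescent libraries alone, so this adjusted p is descriptive only. The other adipokine genes *Lep*, *Retn* and *Cfd* were below the filter. Of the receptors for adiponectin, *Adipor2* and *Cdh13*, which encodes T-cadherin, rose by 0.39 and 0.94. *Adipor1*, at 181 and 213 CPM, rose by 0.23 (adjusted p = 0.0231, edgeR), a call lost when any single library other than senescent replicate 3 was left out (adjusted p from 0.064 to 0.0858). *Rbp4*, the gene of retinol binding protein, rose by 1.40.

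Per length, the order of the 10 genes in control cells was *Pparg* (31.1 RPKM), *Plin2* (28.4), *Cebpd* (12.2), *Fabp4* (8.14), *Cebpb* (5.62), *Cebpa* (3.76), *Lpl* (0.485), *Cd36* (0.0254), *Plin1* (0.0157) and *Adipoq* (0.00977). The ranges of *Cd36* and *Plin1*, and of *Plin1* and *Adipoq*, overlapped, and all other neighbours were separated. In senescent cells *Plin2* led at 45.7 RPKM, followed by *Pparg* at 13.2, and *Cebpd* (7.55), *Fabp4* (5.76) and *Cebpb* (5.65) followed with overlapping ranges between neighbours. *Cebpa* (2.00 RPKM), *Lpl* (0.752), *Cd36* (0.237), *Adipoq* (0.148) and *Plin1* (0.0424) came after them. The place of *Fabp4* is uncertain in both groups, since its exon length equals its whole gene span and its RPKM may be too low. When the same counts were divided by the exon lengths of GENCODE M21, *Plin2* was above *Pparg* in control cells too (28.4 against 20.9 RPKM). *Cebpd* then came to 3.84 RPKM in control and 2.38 RPKM in senescent cells, below *Cebpb*. The counts were made on the deposited models, which are shorter for *Pparg* and *Cebpd*, so these values may be too low for both genes. The lead of *Pparg* over *Plin2* in control cells was seen with the deposited lengths, and reads were not counted again on the GENCODE M21 models.

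Promoter sequence from RefSeq on GRCm38.p6, the assembly named mm10, was at hand for 7 of the 10 genes, in 9 windows of 300 bases around annotated start sites. Both strands were searched for the E-box CACGTG, the site of BMAL1 and its partner CLOCK, for the AP-1 site TGACTCA, for the C/EBP site TTGCNNAA and for GGTCANAGG, the core of the site bound by PPAR and RXR. These were found in 7.15%, 5.2%, 10.8% and 1.72% of all 32851 windows. Among the genes followed here, the E-box was found in *Plin2*, and the C/EBP site in *Plin1* and in a single window of *Pparg*. That window lies at the inner start site, from which the adipocyte form PPARγ2 is made. The counts are per gene and do not separate this form from other forms of *Pparg*. The AP-1 site and the core of the PPAR and RXR site were found in 0 of the 9 windows. The E-box of *Plin2* spans its annotated start. The stretches below show both genes whose levels per length led the set, with the matched letters in capitals, written 5′ to 3′ on the strand of the gene. The stretch of *Plin2* is chr4:86670058-86670159 on the minus strand, and that of *Pparg* is chr6:115421816-115422065 on the plus strand and ends just before the start site.
Plin2: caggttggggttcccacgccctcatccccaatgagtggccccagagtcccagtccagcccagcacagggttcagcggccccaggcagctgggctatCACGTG
Pparg: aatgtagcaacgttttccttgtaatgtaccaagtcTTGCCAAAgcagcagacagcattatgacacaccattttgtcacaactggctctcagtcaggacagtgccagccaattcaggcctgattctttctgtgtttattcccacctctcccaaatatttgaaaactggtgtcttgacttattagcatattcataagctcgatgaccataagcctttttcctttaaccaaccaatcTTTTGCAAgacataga
In *Pparg* the first match reads TTGCCAAA and the second, TTTTGCAA, is on the other strand. A match describes the letters only, and binding was not measured here.

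The proteins and enzymes of lipid metabolism were counted by step. Of 8 tested lipid droplet proteins other than *Plin1* and *Plin2*, 2 rose and 6 fell, with a median of -1.53 beside 0.01 over all genes. *G0s2*, which encodes an inhibitor of adipose triglyceride lipase and is a known PPARγ target, went from 64.7, 79.4 and 79.8 CPM to 11.5, 10.5 and 6.12 CPM in replicates 1, 2 and 3 and fell by 3.00 on the log2 scale (adjusted p = 1.10e-05, edgeR). *Cideb* fell by 2.23. In triglyceride breakdown 2 of 6 genes rose and 2 fell (median 0.01), and the genes that rose were *Pnpla2*, for that lipase itself, from 8.88 to 17.6 CPM (log2 fold change 0.98, adjusted p = 0.000464, edgeR), and *Abhd5*, for its activator, by 0.50. *Lipe*, for hormone-sensitive lipase, was at 4.37 and 4.96 CPM (adjusted p = 0.41, edgeR) and passed without senescent replicate 3 (log2 fold change 0.36, adjusted p = 0.00993).

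In fatty acid synthesis 7 of 10 tested genes fell and 1 rose, with a median of -0.67. *Scd2*, a desaturase gene, fell from 1178 to 349.5 CPM (log2 fold change -1.75, adjusted p = 6.14e-08, edgeR), and *Elovl6* and *Acaca* fell by 1.36 and 0.83. The 1 gene that rose, *Me1*, named here after its values were seen, changed by 0.17 (adjusted p = 0.0465, edgeR), a call lost without senescent replicate 2 or any 1 control library, and without senescent replicate 3 there were 2 such genes. In triglyceride synthesis 2 of 9 genes rose, *Lpin2* by 1.05 and *Lpin3* by 0.67, and 2 fell, among them *Gpam*, the first enzyme of the path, by 0.37; the median was 0.05, and without senescent replicate 3 the number that rose was 5. Over all lists, 90 of 103 genes were tested, of which 30 rose (*Rxrg*, *Ebf2* and *Gata3* among them), 37 fell and 23 did not pass (74.4% called beside 70.3% of all genes tested), with a median of -0.13.

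**Figure D4:**
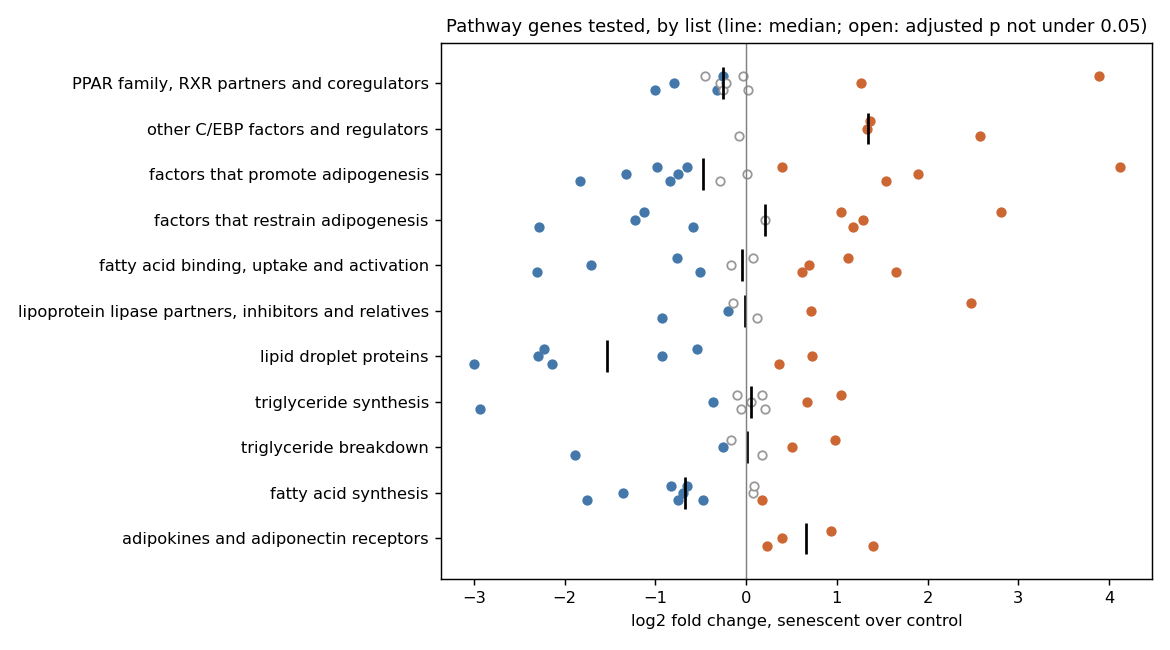
Log2 fold change of senescent over control cells (horizontal axis) of the 90 tested genes in 11 lists around the 10 genes; filled orange points rose, filled blue points fell, open points did not pass, and the black line is the median of a list. Lipid droplet proteins (median -1.53) and fatty acid synthesis (-0.67) lie to the left of 0, and other C/EBP factors and regulators (1.35) to the right.

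Markers of other cell types were measured beside these changes. Of 7 adipocyte markers, which include *Adipoq* and *Plin1*, 2 were tested, *Adipoq* and *Slc36a2*. Both rose, but both passed the filter through the senescent libraries alone and therefore had to differ. The summed level of the 7 markers was 0.117 to 0.140 CPM in control and 0.639 to 0.865 CPM in senescent libraries. This sum contains *Adipoq* and *Slc36a2*, so its rise is descriptive only. *Lep*, *Cidec* and *Retn* did not exceed 3 counts in any library. *Cd36* is also expressed by macrophages and endothelial cells. Of 8 macrophage markers 6 were tested and all 6 rose (5 of 5 without *Itgam*, which passed the filter through the senescent libraries alone), with a summed level of 6.12 to 6.82 CPM in control and 14.7 to 17.3 CPM in senescent libraries, and *Adgre1* and *Aif1* stayed below the filter. Of 7 endothelial markers 5 were tested and all 5 rose (4 of 4 without *Vwf*, for the same reason), from 2.55 to 2.96 CPM in control to 8.17 to 8.70 CPM in senescent libraries, with *Tie1* at no more than 3 counts in any library. The part of such cells in the rise of *Cd36* and *Adipoq* was not tested.

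*Pparg*, *Cebpa* and *Fabp4* are expressed in many mesenchymal cells, and the ear also holds cartilage, sebaceous glands, epidermis and muscle. The 8 chondrocyte markers summed to 4629 to 5124 CPM in control and 299 to 383 CPM in senescent libraries, and of 7 tested 6 fell and 1 rose. The 5 sebocyte markers summed to 1.40 to 1.69 CPM in control and 1.17 to 1.49 CPM in senescent libraries, with *Awat1* at 0 counts in all of them. The 6 keratinocyte markers gave 15.8 to 16.5 CPM and 7.75 to 7.87 CPM, and the 6 skeletal muscle markers gave 15.1 to 20.7 CPM and 14.6 to 27.0 CPM, overlapping between the groups. The part of the decrease in chondrocyte markers in the changes of *Pparg*, *Cebpa* and *Fabp4* was not tested.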

How the data were processed

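RNA-seq counts of 3 control and 3 senescent MAF samples were used, made from 200 ng of total RNA with a stranded kit. In the MAPRSeq pipeline the authors aligned read pairs with STAR (genome build mm10) and summed them per gene with Subread (builds and tools also per the submitters' processing notes), and the deposited values are raw counts per gene, with gene positions and exon lengths beside them. All columns of counts were used, and 0 other columns of per-sample values were found. Reads carry no molecular identifiers.

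From the counts, genes were kept with filterByExpr (minimum count 10), scaled between libraries with TMM, and compared between groups with the quasi-likelihood F-test of edgeR 4.0.16 (R 4.3.3, limma 3.58.1) in its robust form, two-sided, fitted with group alone. The common biological coefficient of variation was 0.100. An exact permutation test of 3 samples against 3 could not go below 0.1 and was not used. RPKM were computed from these counts and the exon lengths. SEs follow from the F statistic, and intervals of count ratios are exact and cover counting error. In data simulated from these libraries, 17234 genes passed the filter, 197 of them with an absolute log2 fold change of 2. The test recovered 197 of these 197 (100%), with 9 false calls among the unchanged genes. Changed genes that the filter removed were not counted. The simulation gave every gene the common coefficient of variation and held no library that stood apart. It therefore shows that the test runs as intended and does not give its error rates in these data.

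The 10 genes, the lists of related genes and the markers were chosen with earlier results of these data known, and the lists come from general knowledge. Named are all 10 genes, a set of partners named whatever their values, and of each list up to 3 genes with the largest absolute log2 fold change among those with an adjusted p under 0.05 and a mean of at least 1 CPM. Alternatives were RLE scaling, library size alone, no filter, at least 10 counts in every library, DESeq2 1.42.0, an adjusted p in the study's threshold, a replicate term, and leaving out each library. GENCODE M21 exon lengths were added after seeing the data and were applied to counts made on the deposited gene models. Gene overlaps come from GENCODE M21 and promoters from RefSeq (GRCm38.p6).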

Additional observations from a re-analysis of the deposited data

How the results depend on the processing

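Between 7 and 8 of the 10 genes were called when each library was left out in turn (4 higher, 3 to 4 lower), *Cebpd* being the one lost, and 3 passed the study's threshold each time. Over the lists this gave 64 to 77 called genes, and from 11214 to 13695 over all genes tested. Where every library had to hold at least 10 counts, *Cd36* and *Adipoq* leave the test by construction, so 2 of the 10 genes were called higher, and 1 gene passed the study's threshold, with 0 of these higher. The same filter left 1 PPAR family gene higher and 1 gene each of triglyceride synthesis and breakdown lower. *Cebpb* changed its sign with no filter (0.00, adjusted p = 0.983, edgeR), without control replicate 1 (-0.06, adjusted p = 0.708) and without senescent replicate 2 (-0.09, adjusted p = 0.504). Its values with a library left out ran from -0.09 to 0.07 and none passed the threshold, and the cause was not tested. Scaling by library size alone moved the median of all genes to 0.09, and with no filter, which adds genes of few counts, it was 0.31 over 29776 genes. Same-numbered samples deviated together in 1 of 3 pairs (correlations -0.37, 0.29 and -0.26, against at most 0.50 between different numbers). No pairing by number was seen, but with 3 samples per group and senescent replicate 3 apart, these correlations cannot exclude it. With a replicate block, 8 of the 10 genes and 67 list genes were called, 11624 over the whole table, and *Ppard* passed (-0.49, adjusted p = 0.0478). Of 106 values for the single genes of the set under these settings, 100 kept their direction and side of the threshold. Depth limits *Plin1*, *Adipoq* and control levels of *Cd36*, where a few counts decide the ratio.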
